A study of Mus musculus with 16 samples.

Results

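Infarct was compared with sham surgery in hearts that overexpress ERBB2, which gave 8 of the 16 mouse heart libraries of the study: 4 OE infarct and 4 OE sham. The libraries were chosen by their labels alone, in the table of normalized reads deposited by the authors, and a gene was tested where 4 or more of the 16 libraries reached 10 normalized reads, which left 14298 of 24421. OE stands for ERBB2 overexpression and WT for wild-type. Each OE sham animal had a sham operation, and each OE infarct animal had its left anterior descending coronary artery tied for good. RNA was taken 2 weeks after surgery from mice of about 3 months, and the same holds for 4 WT sham and 4 WT infarct hearts, used here to ask whether the infarct effect differed between genotypes. Each group came from 4 animals per the design text. The labels used here give no promoter or cell type for the overexpression, no species or sequence of the ERBB2, no sex, and no detail of which part of the heart was taken.

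ERBB2 is a receptor tyrosine kinase that lacks a ligand of its own and signals with its partners ERBB3 and ERBB4, which bind neuregulins. In heart muscle cells this signal runs through the ERK and AKT kinases and is known for driving growth, dedifferentiation and division. Infarction of an adult heart kills muscle cells, and the lost muscle is replaced by a collagen scar made by activated fibroblasts after a phase of inflammation.

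Recovered read totals ran from 14998464 to 17468914 in the 8 OE libraries and from 11939093 to 14886191 in the 8 WT libraries. Erbb2 stood at 1946, 792, 2529.9 and 1783 normalized reads in OE sham and 793, 1105, 1808 and 2504 in OE infarct replicates 1 to 4, above the WT libraries, which ran from 204 to 307. The OE groups overlapped in Erbb2 (log2 fold change -0.20, two-sided exact permutation p = 0.743, n = 4 each). The heart muscle genes Myh6 and Atp2a2 did not fall below 141658 and 69468 normalized reads in any OE library, respectively. On the first principal component of the 8 OE libraries, which held 33.3% of their variance, OE infarct replicate 4 lay at -17.6, among the sham libraries at -36.2 to -2.67, while the other infarct libraries lay between 24.2 and 39.3. The p-values measure the spread between these animals only.

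Transcripts of lung and of thymus were present in several infarct libraries and nearly absent from sham libraries. Sftpc encodes surfactant protein C, made by alveolar type 2 cells of the lung, and Rag1 encodes a recombinase that cuts antigen receptor genes in thymocytes and B cell precursors. Sftpc had 6, 3520, 1185 and 0 reads in OE infarct replicates 1 to 4, against 0, 2, 1 and 0 in the OE sham libraries. Rag1 had 332, 0, 456 and 184 reads in the OE infarct libraries, against 0, 1, 0 and 1 in OE sham. By these genes replicate 2 held lung but not thymus transcripts, replicates 1 and 4 thymus transcripts with at most 6 Sftpc reads, and replicate 3 both. No OE infarct library was free of both.

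In normalized reads Sftpc stood at 0, 1.84, 0.951 and 0 in OE sham and 4.63, 2744, 1097 and 0 in OE infarct libraries, and Rag1 at 0, 0.922, 0 and 0.797 after sham and 256, 0, 422 and 162 after infarct. The groups overlapped for both genes, and each gave a two-sided exact permutation p of 0.143 on log2(value + 1), n = 4 each, where 0.0286 is the smallest p that this design allows. Among WT hearts, Sftpc had 3, 4595, 1092 and 3815 reads in infarct replicates 1 to 4 and at most 3 in sham libraries, while Rag1 had at most 5 reads in any WT library. Lung transcripts thus marked infarct libraries of both genotypes, and thymus transcripts marked OE infarct libraries alone among the 16.

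**Figure D1:**
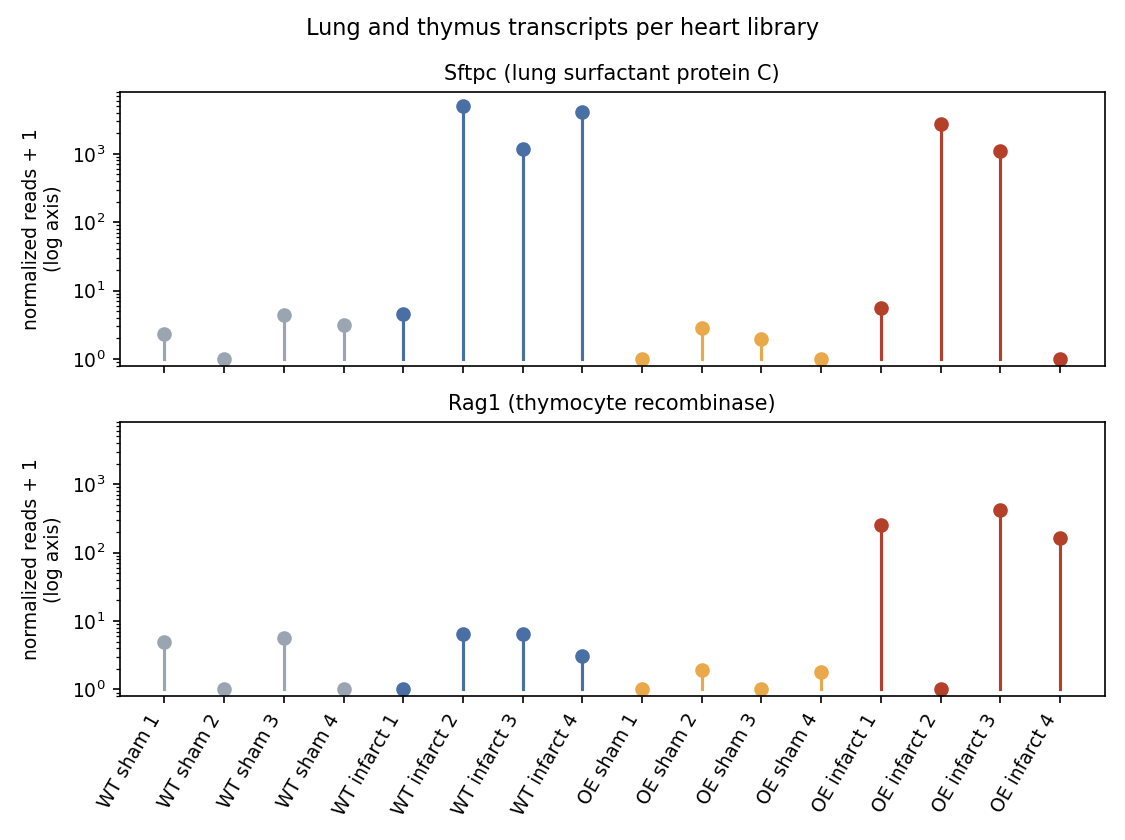
Normalized reads plus 1, on a log axis, of Sftpc (top) and Rag1 (bottom) in each of the 16 heart libraries, 1 point per library. Sftpc exceeds 100 in 2 OE and 3 WT infarct libraries, and Rag1 exceeds 100 in 3 OE infarct libraries.

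Sums of the alveolar type 2 and thymocyte lists, which include Sftpc and Rag1 themselves, followed these genes, and those of lung capillary endothelium did not. Sftpc gave 2744 and 1097 of the alveolar sums in OE infarct replicates 2 and 3. Rag1 gave 256, 422 and 162 of the thymocyte sums in replicates 1, 3 and 4. Sums without these genes were not made. The 14 alveolar type 2 genes summed to 1635, 1771, 1772 and 1829 normalized reads in OE sham and 1947, 8035, 3971 and 1521 in OE infarct replicates 1 to 4, and Sftpd was at 0 in each OE sham library. The 18 thymocyte genes summed to 761, 821, 871 and 851 in OE sham and 2599.6, 1053, 3696 and 1975 in OE infarct replicates. On that list replicate 2 was closest to the sham libraries, and on the alveolar type 2 list replicates 1 and 4 were. The 14 alveolar type 1 and airway genes summed to 570, 798, 752 and 823 normalized reads in OE sham. In OE infarct replicates 1 to 4 their sums were 1051, 4341, 3892 and 1173. Replicates 1 and 4 thus also exceeded every sham library on this list. The 12 lung capillary genes summed to 11137, 11078, 10595 and 11579 in OE sham and 10844, 11589, 12042 and 11727 in OE infarct replicates, with a median of 0.036. Sham libraries already held far more of these transcripts than of the alveolar ones, so a small carried amount would not show in this sum. Of the 12, 8 were above 0, and 2 had an unadjusted limma p below 0.05 on the higher side, beside 4.61% of all tested genes. Of the thymocyte genes 11 of 18 were tested, each with a log2 fold change above 0 and a median of 1.83, beside 46.9% of all tested genes above 0 and a median of -0.012. The other 7, Rag1 among them, did not reach 10 in 4 libraries.

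Infarct against sham in OE hearts gave 1 call among 14298 tested genes, 0.00699%. A call is an adjusted p below 0.05 from limma, a linear model with moderated variance, on log2(value + 1) over all 16 libraries with 1 mean per group and Benjamini-Hochberg adjustment. No gene was called higher, 0% of 14298, and 1 was called lower. At an unadjusted p below 0.05 there were 659 genes on the higher side, 4.61%, and 789 on the lower side, 5.52%, together 10.1%. By count tests on the recovered reads, edgeR called 0 genes higher and 1 lower, limma-voom 0 and 2, and DESeq2 54 (0.378%) and 24 (0.168%). WT hearts of the same fit had 1008 calls, 7.05%, of which 709 were higher and 299 lower. That WT count was 6 with lung and thymus terms in the model and 18 with a lung term alone. With a thymus term alone, chosen after the values were seen, it was 1121. With 1 library left out the WT count ran from 276 without WT sham replicate 2 to 1871 without WT infarct replicate 1. Sftpc and Rag1, the terms used, exceeded 100 in infarct libraries alone. The terms therefore overlap with the infarct contrast, and a fit with them cannot separate carried RNA from the infarct effect. This limit holds for each later use of these terms. Leaving out the libraries whose Sftpc exceeded 100 was chosen after the values were seen. It leaves 1 WT infarct library, replicate 1, assumed to vary like the other groups, so no WT count is given for it. In OE hearts, removing libraries by Sftpc, which leaves infarct replicates 1 and 4, both with thymus transcripts, gave 39 calls (35 higher), and leaving out OE infarct replicate 2 alone gave 10.

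The few calls came with intervals that bound most genes. For 12177 genes, 85.2% of those tested, the 95% interval of the log2 fold change in OE hearts lay within 1 of 0, and for 8656, 60.5%, within 0.5. The median standard error (SE) was 0.131. The 4 infarct libraries lay entirely above the 4 sham libraries for 328 genes, 2.29%, and entirely below for 394, 2.76%, together 5.05%. Log2 fold changes of at least 1 in size numbered 303 on the higher side and 29 on the lower side, and the plot of all genes shows the lung and thymocyte genes among the former.

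**Figure D2:**
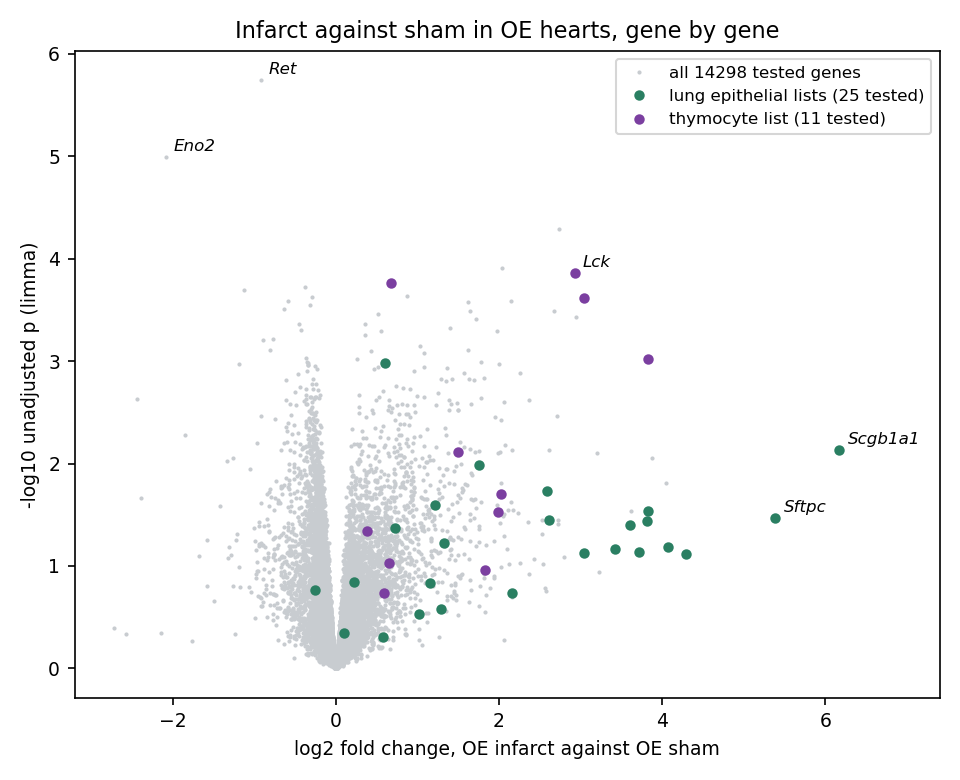
Log2 fold change of infarct against sham in OE hearts (x) against -log10 of the unadjusted limma p (y) for the 14298 tested genes in grey, with the alveolar and airway lists of the lung in green and the thymocyte list in purple. Ret and Eno2 stand apart on the lower side, and Scgb1a1 and Sftpc, of the lung lists, have the largest folds on the higher side.

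The called gene was Ret, which encodes the receptor tyrosine kinase for ligands of the GDNF family. Ret stood at 144, 130.0, 163 and 128 normalized reads in the OE sham libraries and 70.2, 81.1, 64.8 and 80.2 in the OE infarct libraries. All 4 infarct libraries lay below all 4 sham libraries, and Ret fell by 0.92 on the log2 scale (SE 0.12, 95% interval -1.19 to -0.66, adjusted p = 0.0259 in limma). Log2 fold changes, given in brackets after a gene's values, are on the scale of log2(value + 1), which understates changes of low genes. WT sham hearts had 186, 175, 172 and 168 and WT infarct hearts 187, 183, 251 and 171, so the OE infarct libraries were the lowest of all 16. In WT hearts the log2 fold change was 0.16 (adjusted p = 0.441), and the effects differed between genotypes (difference -1.08, adjusted p = 0.0261). The Ret call was lost in 18 of 34 alternative settings, in all of which the log2 fold change lay between -0.97 and -0.79. Among these, adjusted p was 0.289 with only the OE libraries or with a lung term, 0.49 with a thymus term and 0.601 with both terms. For RA numbers 1 to 12, a label whose meaning is not given, it was 0.101. That subset leaves out OE sham replicate 4, WT sham replicates 3 and 4 and WT infarct replicate 4. Without OE sham replicate 4 alone the call was kept (0.0461). The Ret call was also lost without OE infarct replicate 1 or 3 (0.079 and 0.160) and without OE sham replicate 1, 2 or 3 (0.162, 0.0741 and 0.170). Of the WT libraries, whose omission leaves the fold as it is, replicate 1 of the infarct group (0.0507) and each of the sham group (0.0535 to 0.0601) also ended the call.

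Eno2, the neuronal form of the glycolytic enzyme enolase, had the next smallest p and was not called. It stood at 498, 458, 411 and 448 normalized reads in OE sham and 265, 90.4, 74.1 and 70.5 in OE infarct hearts, against 51.7, 43.4, 49.4 and 76.99 in WT sham and 97.6, 86.6, 75.03 and 134 in WT infarct. OE sham hearts were thus the highest of the 4 groups without overlap, and OE infarct replicates 2 to 4 lay within the range of WT libraries. The log2 fold change in OE hearts was -2.09 (SE 0.33, 95% interval -2.78 to -1.39, adjusted p = 0.0736 in limma), adjusted p was 0.000144 in DESeq2, and without OE infarct replicate 1 limma gave -2.52 with an adjusted p of 4.82e-05. The infarct effect differed between genotypes for Eno2, at -2.90 (adjusted p = 0.023), and WT hearts gave 0.82.

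Mycn, a transcription factor of the MYC family, stood at 150.1, 153, 106 and 124 in OE sham and 58.7, 74.05, 56.5 and 51.98 in OE infarct libraries (log2 fold change -1.13, SE 0.23, limma adjusted p = 0.257). Its OE groups did not overlap, and the infarct libraries lay in the range of the WT libraries, 30.7 to 81.7. Alkbh3, which repairs alkylated nucleic acid bases, stood at 645, 650.0, 709.8 and 578 after sham and 514, 525, 454 and 488 after infarct (-0.38, SE 0.078). Afg3l2, a subunit of a protease of the inner mitochondrial membrane, stood at 2997, 3184, 3139 and 3055 after sham and 2471, 2425, 2485 and 2697 after infarct (-0.30, SE 0.063). Limma did not call these 3 genes (adjusted p = 0.257 each), and each had no overlap between OE infarct and OE sham libraries. DESeq2 on the recovered reads called all 3, with adjusted p of 0.000617 for Mycn, 0.00535 for Alkbh3 and 0.00292 for Afg3l2.

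Start-site sequence is shown for Eno2 and Mycn, which had the largest folds among the 5 genes just named. The windows hold 250 bases before and 50 after the start in RefSeq on GRCm38.p6, both on the minus strand, printed 5′ to 3′ in the direction of the gene. Capitals mark GGAAG or its reverse complement CTTCC, the core that ETS factors, targets of ERK, are known to bind. Eno2 is at chr6:124769624-124769923 and Mycn at chr12:12941787-12942086.
Eno2: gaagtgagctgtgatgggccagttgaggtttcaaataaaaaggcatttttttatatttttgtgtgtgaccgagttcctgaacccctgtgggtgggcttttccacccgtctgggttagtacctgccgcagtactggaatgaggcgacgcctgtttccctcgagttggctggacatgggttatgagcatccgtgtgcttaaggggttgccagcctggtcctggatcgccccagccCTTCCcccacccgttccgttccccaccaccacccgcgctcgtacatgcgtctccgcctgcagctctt
Mycn: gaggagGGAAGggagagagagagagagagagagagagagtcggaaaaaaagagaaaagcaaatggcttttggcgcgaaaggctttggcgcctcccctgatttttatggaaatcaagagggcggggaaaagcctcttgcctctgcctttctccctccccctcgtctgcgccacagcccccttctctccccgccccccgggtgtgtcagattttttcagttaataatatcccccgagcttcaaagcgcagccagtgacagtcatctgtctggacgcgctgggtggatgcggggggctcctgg
The core was found once in each window, and 71.4% of all 32851 windows of 300 bases hold it on either strand. The Alkbh3 window holds 2 copies. Ret and Afg3l2 were not matched to a window used here.

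On the higher side limma called no gene, and the smallest p values outside the lung and thymocyte lists with no overlap belonged to Lrg1, Lcn2, Tmem164, Cytip and Slc31a2. DESeq2 on the recovered reads called all 5, with adjusted p from 0.00175 for Cytip to 0.0242 for Slc31a2, and so does the authors' deposited table, from 0.00216 to 0.0292. Lrg1, a secreted glycoprotein made by neutrophils and vessels, stood at 190.4, 274, 281 and 387 in OE sham and 616, 522, 504 and 399.9 in OE infarct hearts (0.88, SE 0.18, limma adjusted p = 0.257). Both OE groups lay below the WT libraries, which ran from 777 to 1163. Lcn2, the iron-siderophore binding protein lipocalin 2, stood at 24.1, 44.3, 30.4 and 62.97 after sham and 110.4, 133, 149 and 91.6 after infarct (1.62, SE 0.35, adjusted p = 0.257). WT hearts gave 1.56 for Lcn2 (adjusted p = 0.0175), and the genotypes' effects differed by 0.07 (95% interval -0.97 to 1.11).

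Cytip, a leukocyte protein that binds cytohesin, stood at 25.02, 44.3, 24.7 and 34.3 after sham and 115, 49.9, 143 and 147 after infarct (1.72, SE 0.38, limma adjusted p = 0.265). Its lowest infarct library was replicate 2, the one with no Rag1 read. With a thymus term the Cytip value was 0.54, and without the libraries whose Sftpc exceeded 100 it was 2.03. Tmem164 stood at 379, 429, 382 and 395 after sham and 655, 622, 506 and 495 after infarct (0.51), and the copper transporter gene Slc31a2 at 315, 309, 290.2 and 366 after sham and 458, 385, 391 and 407 after infarct (0.36). Limma called neither (adjusted p = 0.263 and 0.269), and with a thymus term their values were 0.53 and 0.27.

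**Figure D3:**
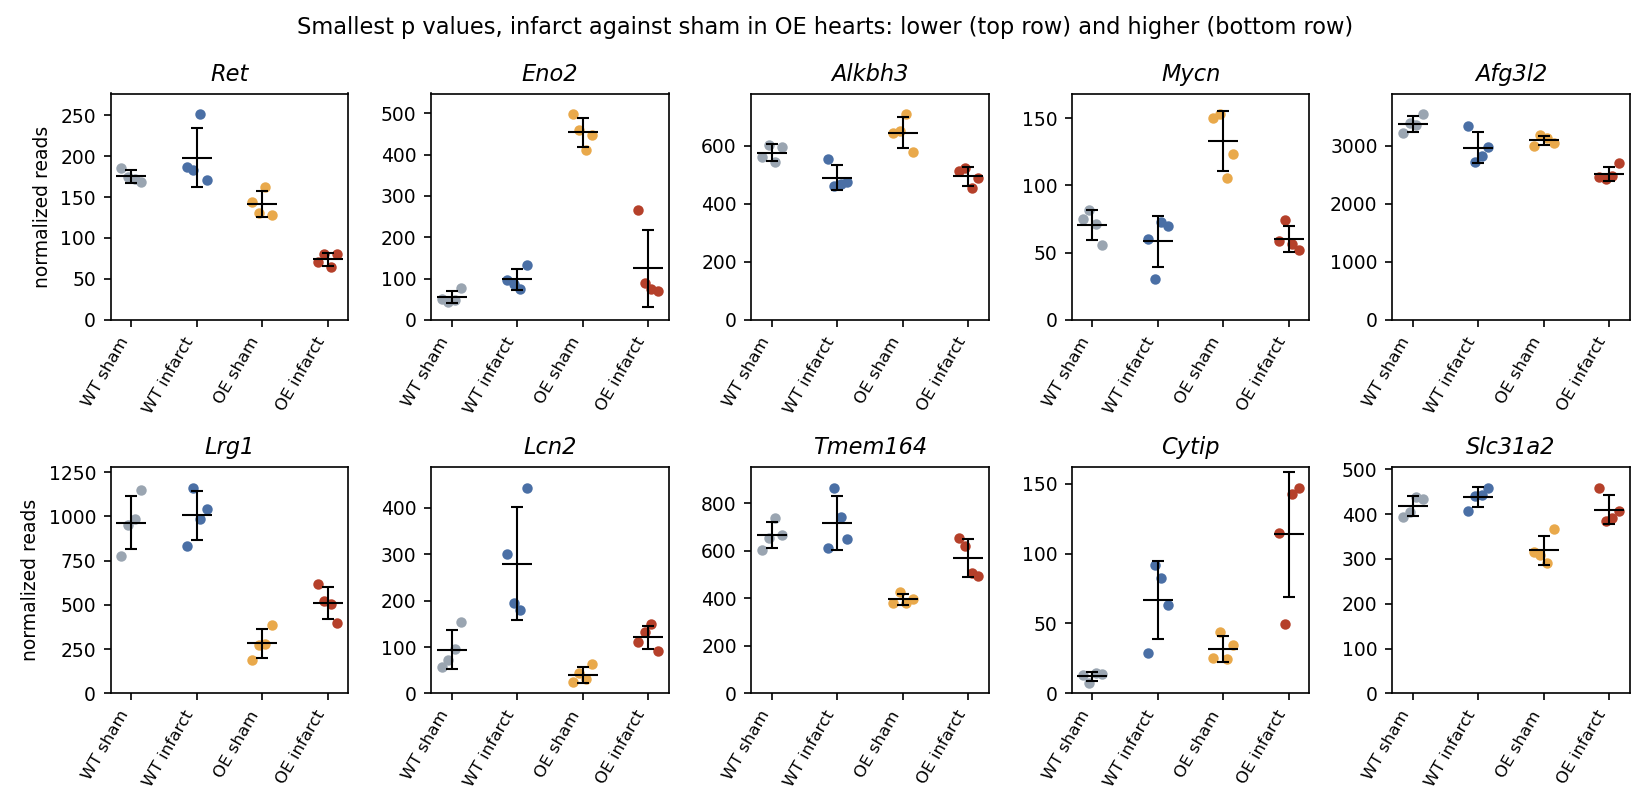
Normalized reads of the 5 genes of smallest p on the lower side (top) and the higher side (bottom) among genes without overlap between OE infarct and OE sham, in the 4 groups. Points are libraries, and bars are mean and SD of 4 libraries. Eno2 and Mycn are highest in OE sham, and of the 10 genes only Ret is called by limma.

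The authors' deposited table calls 85 genes in this comparison, 0.434% of 19584 with an adjusted p, of which 63 are higher (0.322%) and 22 lower (0.112%). Of the 85, 73 passed the filter and were tested here, all 22 lower genes among them. DESeq2 run here on the recovered reads shared 72 of these 73, and limma shared 1, Ret. Of the 63 higher genes of the authors' deposited table, 10 are on the thymocyte list and 6 on lung lists, while no lower gene is on either. Among those higher genes that were tested here, the infarct libraries lay entirely above sham for 36, beside 2.29% of all tested genes. The higher genes that were not tested here were not examined for overlap. Among the lower genes they lay entirely below for 20 of 22, beside 2.76%. Both counts come from the contrast that chose these genes. The genes of that table described next were chosen after their values were seen.

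In the authors' deposited table Spred1, an inhibitor of the Ras to ERK cascade, has a log2 fold change of -0.43 (adjusted p = 0.00905), Phlda1, a gene induced by growth factors, -0.91 (0.00963), and Hes1, a repressor induced by Notch, -0.58 (0.00819). In normalized reads Phlda1 stood at 2451, 2845, 4050.4 and 2680.0 in OE sham and 1283, 1739.7, 1719 and 1661 in OE infarct libraries. Spred1 stood at 1366, 1334, 1425 and 1178 after sham and 966, 946, 961 and 1069 after infarct. Hes1 stood at 763, 826, 726 and 678 after sham and 479, 558, 404 and 564 after infarct. None of the 3 overlapped between OE groups, and limma called none (adjusted p from 0.257 to 0.298). Their values with lung and thymus terms ran from -0.68 to -0.45.

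The authors' deposited table lists Rin1, a Ras effector, at -0.80 (adjusted p = 0.0257). Rin1 stood at 339, 367, 284 and 238 after sham and 144, 136, 236 and 190.3 after infarct. Des, the intermediate filament desmin of muscle, stood at 91509, 89249, 80984 and 61722 in OE sham and 47022, 54793, 71719 and 54666 in OE infarct hearts. Des overlapped between the groups through OE sham replicate 4 and OE infarct replicate 3, and limma gave -0.50 (adjusted p = 0.344).

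Among the higher genes of the authors' deposited table were markers of thymus and lung. Lck, a kinase of T cells, stood at 8.94, 19.4, 8.56 and 8.77 in OE sham and 133, 17.9, 218 and 113 in OE infarct libraries, and Tcf7, a T cell transcription factor, at 30.4, 23.97, 16.2 and 23.1 after sham and 329.6, 31.96, 595 and 225 after infarct. In both, infarct replicate 2 lay near the sham libraries and the others lay far above. Sftpb, another surfactant protein gene, stood at 2.68, 1.84, 0.951 and 3.19 after sham and 3.09, 666, 252 and 2.64 after infarct, high in infarct replicates 2 and 3 alone. The part of carried RNA in the other higher genes of the authors' deposited table was not tested.

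Across 45 gene lists, which hold 863 genes of which 806 were tested, limma called no member in either direction. DESeq2 on the recovered reads called 26 members, 23 higher and 3 lower, beside 0.378% and 0.168% of all tested genes. The authors' deposited table calls 31, 28 higher and 3 lower, beside 0.322% and 0.112% of its 19584 genes with an adjusted p. Its higher genes include 10 on the thymocyte list and 6 on lung lists. All lists were written with earlier results of these data known. The lower ones of the authors' deposited table are Spred1, Phlda1 and Des. ERK feedback and ETS target genes had a median of -0.093 over 20 tested members, and 6 were above 0. Infarct libraries lay entirely below sham for 3 of the 20, Spred1, Spred2 and Phlda1, beside 2.76% of all genes. The dual-specificity phosphatase genes Dusp4, Dusp5 and Dusp6, which switch ERK off, gave -0.063, -0.061 and -0.047. Hbegf, a ligand of EGFR and ERBB4, stood at 3170.0, 2874, 3228 and 2004 after sham and 1269, 960.3, 2909 and 2297 after infarct (-0.71), with infarct replicates 1 and 2 below and replicates 3 and 4 within the sham range. With both terms the list's median was -0.33, and without libraries with Sftpc above 100 it was 0.0049.

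Receptors and ligands of the ERBB family had a median of -0.043 over 14 tested members. Errfi1, an inhibitor that ERBB receptors induce, stood at 742, 733, 1237 and 609 in OE sham and 1532, 672, 2026 and 6885 in OE infarct libraries (1.28, limma adjusted p = 0.473), with replicate 4 highest and replicate 2 within the sham range. The neuregulin gene Nrg1 stood at 26.8, 22.1, 5.71 and 5.58 after sham and 142, 21.8, 24.99 and 7.93 after infarct, and its receptor Erbb4 at 58.1, 76.5, 64.7 and 66.96 after sham and 43.2, 75.6, 49.99 and 60.8 after infarct. Both overlapped between groups. The study's title names YAP, a transcriptional co-activator, and processes like the epithelial-mesenchymal transition (EMT). The medians given here compare infarct with sham within a genotype and do not measure an effect of ERBB2 overexpression. EMT genes had a median of -0.0048 in OE hearts over 28 tested members, 14 above 0, and of 0.69 in WT hearts. In WT hearts 13 of them were called higher, beside 4.96% of all genes, and 1 with lung and thymus terms. YAP target genes had a median of 0.017 over 22 tested members, 12 above 0. Ctgf ranged from 7293 to 17531 in OE sham and from 6534 to 20446 in OE infarct hearts (-0.04, 95% interval -0.91 to 0.83), and Cyr61 gave -0.03 (-0.84 to 0.78).

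No scar or matrix gene was called by limma between the OE groups, and the infarct effect on several of them differed from that in WT hearts. Fibrillar matrix genes had a median log2 fold change of 0.093 in OE hearts over 25 tested members with no call, and 1.12 in WT hearts with 21 called higher, beside 4.96% of all genes. With lung and thymus terms 1 of the 25 was called higher in WT hearts. Col3a1, a fibrillar collagen chain, stood at 4934, 4609.5, 6764 and 5109.9 in WT sham and 20998, 16115, 34393 and 30624 in WT infarct hearts, a rise of 2.21 (adjusted p = 0.000196). In OE hearts it stood at 35154, 37713, 44679 and 34069 after sham and 50004, 55498, 38591 and 29349 after infarct (0.16, 95% interval -0.32 to 0.64). Every OE sham library was above 3 of the 4 WT infarct libraries or all of them. The effects differed by -2.05 (adjusted p = 0.023).

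Postn, the matrix protein periostin of activated fibroblasts, stood at 18389, 19600.3, 16811 and 11998 in OE sham and 16126, 21012, 20531 and 15069 in OE infarct libraries (0.13, 95% interval -0.28 to 0.54). It rose in WT hearts, from a range of 1217 to 1573 to 3366 to 6648 (1.95, adjusted p = 0.000196), and the effects differed by -1.81 (adjusted p = 0.022). Ctsk, the collagen-degrading protease cathepsin K, stood at 798, 673, 824 and 735 after sham and 722, 626, 778 and 661 after infarct in OE hearts (-0.12, -0.40 to 0.16) and rose in WT hearts from 124, 126, 111 and 129 to 319, 255, 428 and 395 (1.48, adjusted p = 0.000112). It had the smallest p of the genotype difference (-1.60, adjusted p = 0.0041). For Postn and Ctsk both OE groups lay above all WT libraries.

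The difference in infarct effect between OE and WT hearts was called for 12 genes, 0.0839% of those tested, 1 positive and 11 negative (0.0769%). At an unadjusted p below 0.05 there were 1416, 9.9%, of which 538 were positive (3.76%) and 878 negative (6.14%). Besides Ret, Eno2, Col3a1, Postn and Ctsk the negative ones were the collagen chain gene Col5a2 (-1.51), the collagen-binding glycoprotein gene Sparc (-1.09), the gelatinase gene Mmp2 (-1.26), the metalloproteinase gene Adamts12 (-1.43), the fibulin gene Fbln7 (-2.31) and Pamr1 (-1.75). Of the 12, Ctsk, these 6 and Ankrd63 were chosen for description after their values were seen. Each of the 6 rose in WT hearts, by 1.12 (Sparc) to 1.99 (Fbln7), and none was called in OE hearts, where values ran from -0.43 (Pamr1) to 0.19 (Col5a2). The positive one was Ankrd63, which fell in WT hearts (-0.998, adjusted p = 0.00516) and stood at 34.9, 26.7, 35.2 and 40.7 after sham and 45.5, 45.2, 49.99 and 51.1 after infarct in OE hearts (0.48, not called).

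Infarct libraries carried lung transcripts in both genotypes and thymus transcripts in OE hearts alone. Of the 12 genes, 10 stayed called with a lung term, 2 with a thymus term, 2 with both terms (Ctsk and Fbln7) and none for RA numbers 1 to 12. With both terms the sign of all 12 was the same, adjusted p ran up to 0.0635, and the differences were -2.99 for Eno2, -1.83 for Col3a1, -1.63 for Postn, -1.27 for Mmp2 and -1.11 for Sparc. Without libraries whose Sftpc exceeded 100, which leaves WT infarct replicate 1 and OE infarct replicates 1 and 4, Ctsk alone of the 12 stayed called, and the difference was -1.96 for Col3a1 and -2.15 for Postn. Without libraries whose Rag1 exceeded 100, which leaves OE infarct replicate 2, Ctsk and Eno2 stayed called. All 12 also stayed called without OE infarct replicate 1, OE sham replicate 4, WT infarct replicate 1 or 2, or WT sham replicate 3. Fewer did without OE infarct replicates 2, 3 and 4 (11, 3 and 8), OE sham replicates 1, 2 and 3 (1, 4 and 1), WT infarct replicates 3 and 4 (3 and 5) and WT sham replicates 1, 2 and 4 (4, 2 and 2).

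**Figure D4:**
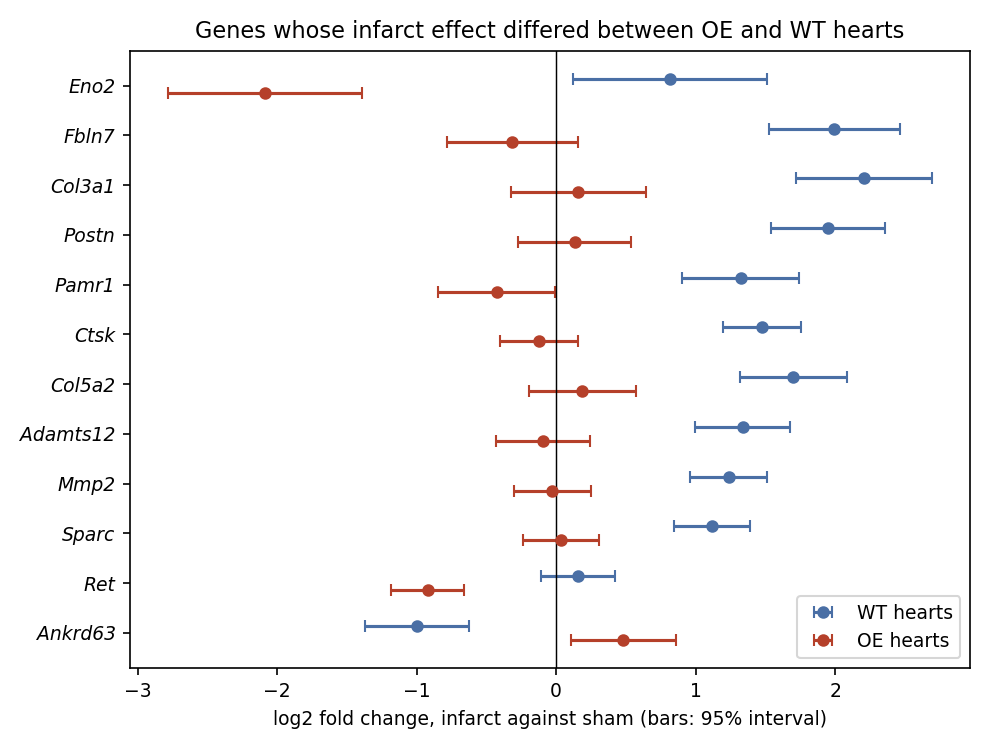
Log2 fold change of infarct against sham with its 95% interval in WT hearts (blue) and OE hearts (red) for the 12 genes whose effect differed between genotypes. In 9 genes the WT value lies at 1.12 or more and the OE interval spans 0, except in Pamr1, where it ends just below 0.

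Other scar genes gave wide intervals in OE hearts. Cthrc1, a secreted protein of activated fibroblasts, stood at 146, 206, 102 and 46.2 in OE sham and 354, 301, 172 and 77.5 in OE infarct hearts (0.83, 95% interval -0.32 to 1.97), with overlap. Comp, a matrix protein of cartilage and scar, stood at 681, 443, 358 and 519.7 after sham and 2806, 549, 419 and 484 after infarct (0.62), and infarct replicate 1 alone was far above the rest. Sfrp2, a secreted modulator of Wnt signals, stood at 158, 185, 105 and 180.2 after sham and 1418, 536, 320.3 and 229 after infarct (1.66, limma adjusted p = 0.344, DESeq2 adjusted p = 0.0329), with no overlap. Activated fibroblast genes as a list had a median of 0.14 over 29 tested members in OE hearts and 1.02 in WT hearts, where 16 were called higher, beside 4.96% of all genes, and 1 with lung and thymus terms.

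Elastin (Eln) stood at 4867, 4469.5, 1774 and 2998 after sham and 10451, 7042, 6001 and 3611 after infarct (0.95, limma adjusted p = 0.422), with replicate 4 within the sham range. Late scar, bone and cartilage genes had a median of 0.25 over 20 tested members, basement membrane genes -0.062 over 17, and metalloproteinases with their inhibitors 0.24 over 22. Timp4, an inhibitor of metalloproteinases found in heart muscle, stood at 75.97, 126, 129 and 89.3 in OE sham and 310.3, 190.2, 203 and 344 in OE infarct hearts, with no overlap (1.29, limma adjusted p = 0.344, DESeq2 adjusted p = 0.0264). In WT hearts Timp4 gave -0.14. Tgfb2, a ligand of the TGF-beta family, stood at 1311, 1103, 1169 and 849 after sham and 692, 645, 824 and 706 after infarct with no overlap (-0.62, adjusted p = 0.371).

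Limma called no gene of the stressed and fetal heart between OE infarct and OE sham. Nppa, the atrial natriuretic peptide gene, ranged from 157158 to 226201 in OE sham and from 141534 to 235375 in OE infarct hearts (-0.03, 95% interval -0.74 to 0.67). Nppb, the brain natriuretic peptide gene, stood at 20853, 18995, 22655 and 14108 after sham and 12484, 8561, 16805 and 18219 after infarct (-0.49, -1.34 to 0.36). Ankrd1, a stress-induced muscle ankyrin repeat protein gene, stood at 87441, 89859, 84766 and 78633 after sham and 47719.7, 48461, 75736 and 87183 after infarct (-0.44), lowest in infarct replicates 1 and 2. Cardiomyocyte stress and fetal genes as a list had a median of -0.037 over 25 tested members in OE hearts and 0.33 in WT hearts. With library totals as the scaling the former was 0.0036.

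The myosin heavy chain genes Myh6 and Myh7 gave -0.08 (-0.41 to 0.26) and 0.02 (-0.68 to 0.71). Sarcomere genes had a median of -0.13 over 26 tested members, 4 of them above 0, beside 46.9% of all genes, and infarct libraries lay entirely below sham for 1, beside 2.76%, a share near that of all genes. Cryab, a small heat shock protein of the sarcomere, stood at 29044, 29886, 35899 and 27568 after sham and 17514, 21503, 27165 and 26439 after infarct (-0.42, limma adjusted p = 0.39). Calcium handling and channel genes had a median of -0.039 over 28 tested members, 11 of them above 0. With both terms the sarcomere median was -0.026 and the channel median 0.28. In bulk heart RNA, fewer cells of a type and less RNA per cell cannot be told apart.

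Oxidative phosphorylation genes had small negative values. Of 29 oxidative phosphorylation genes tested, none was above 0, beside 46.9% of all genes, the median was -0.18, and 12 had an unadjusted p below 0.05, beside 5.52%. The infarct libraries lay entirely below sham for 1 of the 29, beside 2.76% of all genes, a share near it. Ndufs8, a subunit of respiratory complex I, stood at 2335, 2539.9, 2439.5 and 2165 in OE sham and 2148, 2077, 1993 and 2054 in OE infarct hearts (-0.19, SE 0.058, limma adjusted p = 0.365), and every infarct library was below every sham library. Cytochrome c (Cycs) stood at 11918, 13088, 13159 and 10497 after sham and 9835, 10394, 10071 and 10655 after infarct (-0.24), with infarct replicate 4 above sham replicate 4. Tricarboxylic acid cycle genes had a median of -0.12 over 24 with 1 above 0, and fatty acid genes -0.10 over 33 with 13 above 0.

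With lung and thymus terms the oxidative phosphorylation median was -0.063, and those of the tricarboxylic acid cycle and fatty acid genes were 0.022 and 0.17, both on the other side of 0. Without the libraries whose Sftpc exceeded 100 they were -0.14, -0.12 and -0.042. WT hearts gave -0.22 for oxidative phosphorylation with 3 of 29 called lower, beside 2.09% of all genes. Glycolysis genes had a median of -0.11 over 22 tested members in OE hearts, and 3 lay entirely below sham, beside 2.76% of all genes. One of these was Tpi1, triosephosphate isomerase, at 13816, 13764, 13677 and 12839.5 after sham and 12195, 12168, 12566 and 11984 after infarct (-0.14).

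Neutrophil, complement and antigen presentation genes lay mostly above 0, beside 46.9% of all genes, with no call by limma. Neutrophil and alarmin genes had a median of 1.71 over 10 tested members, 10 of 10 above 0, and their sum was 125, 182, 191 and 229.6 normalized reads in OE sham and 1230.3, 316, 541 and 366 in OE infarct libraries. Infarct replicate 1 was highest and all 4 exceeded each sham library. S100a8, an alarmin of neutrophils, stood at 1.79, 4.61, 0.951 and 1.59 after sham and 134, 5.46, 9.26 and 11.5 after infarct (2.62, limma adjusted p = 0.39). With both terms the list's median was 0.74, and without the libraries whose Rag1 exceeded 100, which leaves infarct replicate 2, it was 0.63.

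Complement genes had a median of 0.31 over 19, with 18 above 0, and none of the 19 was free of overlap between the OE groups. C3, the central complement component, stood at 2086, 2799.9, 2205 and 4894 after sham and 10898, 7462, 5831 and 2949 after infarct (1.12, adjusted p = 0.419), with replicate 4 in the sham range. Antigen presentation and interferon genes had a median of 0.20 over 28, with 24 above 0. The class II gene H2-Eb1 stood at 292, 204, 325 and 470.3 after sham and 473, 888, 710.0 and 323 after infarct. Macrophage genes had a median of 0.11 over 29 in OE hearts and 0.85 in WT hearts, where 13 were called higher, beside 4.96% of all genes, and 1 with lung and thymus terms.

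Among macrophage genes Lyve1, a hyaluronan receptor of lymphatic vessels and resident macrophages, stood at 406, 492, 461 and 519.7 in OE sham and 1030.4, 718, 1078 and 952 in OE infarct libraries (0.995, limma adjusted p = 0.344, DESeq2 adjusted p = 0.0384), with no overlap. Spp1, the secreted protein osteopontin, stood at 177, 188, 118 and 126 after sham and 726, 139, 131 and 268 after infarct (0.71, 95% interval -0.30 to 1.71), while it rose in WT hearts (3.38, adjusted p = 0.00111). The difference between these effects was -2.67 (adjusted p = 0.196), not called. Marco and Chil3, genes of lung alveolar macrophages, stood at 57.9, 29.6, 22.2 and 8.81 and 75.6, 519, 50.9 and 1.76 in OE infarct replicates and at most 11.1 in OE sham. Chil3 was highest in replicate 2, the OE library with the most Sftpc, and Marco in replicate 1, which had 6 Sftpc reads.

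Mitosis and cytokinesis genes had log2 fold changes above 0 for all 25 tested members in OE hearts, median 0.51, beside 46.9% of all genes, with 5 at an unadjusted p below 0.05, beside 4.61%, and no call. Plk1, a mitotic kinase, stood at 57.2, 61.8, 44.7 and 40.7 in OE sham and 67.1, 78.7, 128 and 101 in OE infarct libraries (0.84, limma adjusted p = 0.401), with no overlap. Mki67, the proliferation antigen gene, stood at 499.6, 439.8, 349 and 265 after sham and 439.9, 439.6, 879 and 498 after infarct (0.51), with replicate 3 alone above the sham range. The list summed to 2729, 2938, 5416 and 3438 in the infarct replicates and 3042, 2909, 2215 and 1916 in the sham libraries. Infarct replicate 3 also held the most Rag1, while infarct replicate 1, with the next most, had the lowest infarct sum. With lung and thymus terms the median was -0.20, on the other side of 0. Without the libraries whose Rag1 exceeded 100, which leaves infarct replicate 2, it was 0.25, and the part of thymocytes in these values was not tested further. S-phase genes had a median of 0.064 over 26.

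Myh2, a myosin of fast skeletal muscle, stood at 0.894, 0, 0 and 1.59 in OE sham and 295, 49.1, 12.03 and 0.881 in OE infarct libraries, and Mylpf at 3.57, 8.3, 4.76 and 5.58 after sham and 251, 14.03, 20.4 and 13.2 after infarct, both highest in infarct replicate 1. The fat gene Adipoq stood at 119.8, 60.8, 18.1 and 428 after sham and 270.1, 684, 576 and 75.8 after infarct, high in infarct replicates 2 and 3 and sham replicate 4. Epicardial and mesothelial genes had a median of 0.92 over 15, with 13 above 0, beside 46.9% of all genes. On the higher side 8 of the 15 had an unadjusted p below 0.05, beside 4.61% of all genes. Krt8, an epithelial keratin, stood at 32.2, 23.05, 15.2 and 31.1 after sham and 83.4, 53.00, 133 and 103 after infarct (1.82), with no overlap, and Msln, mesothelin, at 100.1, 141, 69.5 and 188 after sham and 450.0, 291, 277 and 156 after infarct (1.23). With both terms the mesothelial median was 0.18.

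Vessel and mural genes gave small values. Endothelial genes had a median of 0.092 over 22. Pericyte and smooth muscle genes had a median of -0.11 over 16, with 3 entirely below sham, beside 2.76% of all genes. These were Cspg4, the pericyte proteoglycan NG2, at 1613, 1485, 1755 and 1316 after sham and 886, 1059, 1185 and 1111 after infarct (-0.54), the channel gene Kcnj8 at 595, 647, 474 and 559 after sham and 431, 459, 396 and 468 after infarct (-0.37), and the growth factor receptor gene Pdgfrb at 3406, 3308, 2706 and 2835 after sham and 2478, 2609, 2417 and 2505 after infarct (-0.29). None was called (limma adjusted p = 0.39, 0.39 and 0.414).

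Ddit4, an inhibitor of mTOR induced by stress and hypoxia, stood at 433, 341, 637 and 342 in OE sham and 1625, 492, 1848 and 2098 in OE infarct hearts (1.64, limma adjusted p = 0.39), with replicate 2 within the sham range. Agt, angiotensinogen, stood at 37.5, 69.1, 99.9 and 155 after sham and 131, 197, 553 and 374 after infarct (1.75, adjusted p = 0.39). Adra1b, an alpha-1 adrenergic receptor gene, stood at 175, 218, 239.8 and 217 after sham and 266, 351, 311 and 314 after infarct with no overlap (0.55, limma adjusted p = 0.269, DESeq2 adjusted p = 0.0242), while WT hearts gave -0.39 (adjusted p = 0.0667). The difference between genotypes for Adra1b was 0.94 (adjusted p = 0.064), not called.

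**Figure D5:**
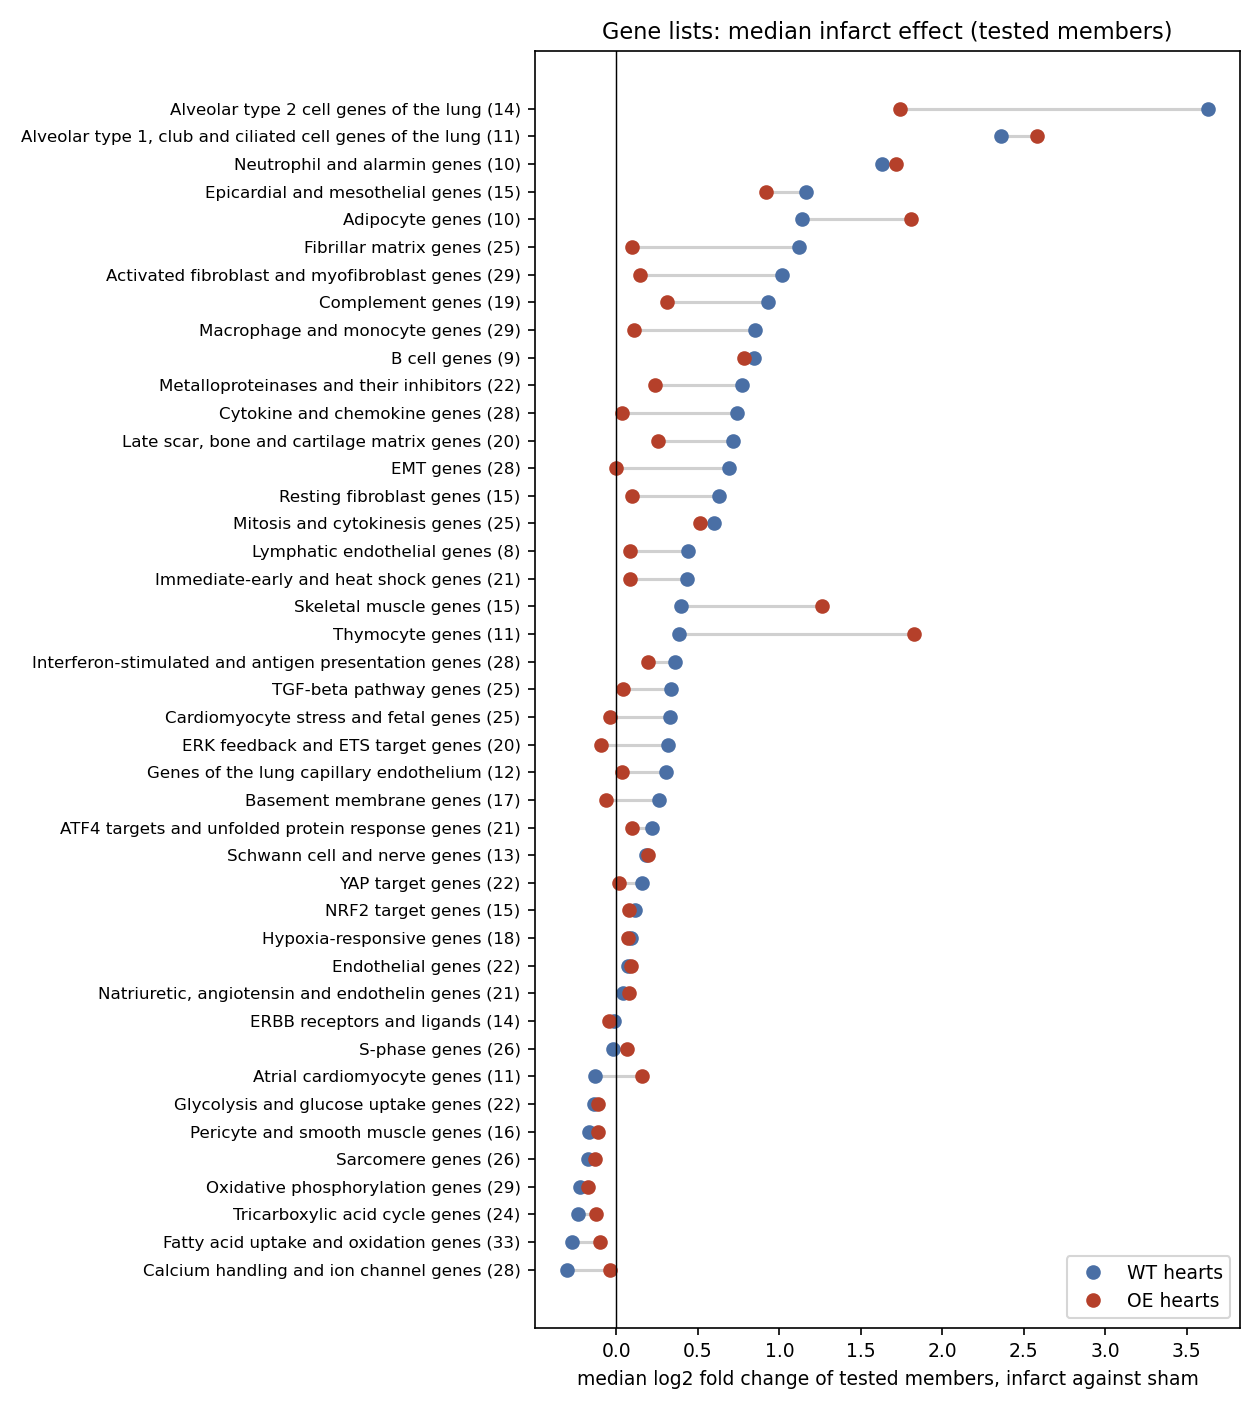
Median log2 fold change of infarct against sham over the tested members of each gene list with at least 5 of them, in WT hearts (blue) and OE hearts (red), with the number of tested members in brackets. Fibrillar matrix genes lie at 1.12 in WT and 0.093 in OE hearts, and thymocyte genes at 0.39 and 1.83.

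Genes called in WT hearts had smaller values of the same sign in OE hearts. The 709 genes called higher in WT hearts had a median of 0.81 there, the values that chose them, and of 0.16 in OE hearts. In OE hearts 580 (81.8%) were above 0, beside 46.9% of all genes. Of the 709, 128 were higher in OE hearts at an unadjusted p below 0.05, beside 4.61% of all genes, and none was called. The 299 called lower had a median of -0.32 in WT and -0.092 in OE hearts, where 249 (83.3%) were below 0, beside 53.1% of all genes. Both genotypes hold infarct libraries with lung transcripts. Without the libraries whose Sftpc exceeded 100 the OE medians of the same genes were 0.18 and -0.096, and with both terms they were -0.046 and 0.053, on the other side of 0.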

How the data were processed

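RNA of 16 mouse hearts was sequenced, 4 per group. Per the labels' design text, the authors trimmed 60 bp single reads with cutadapt, dropped reads under 40 nt, subsampled to 23M reads, aligned to mm10 with TopHat 2.0.10, counted RefSeq genes with HTSeq-count 0.6.1p1 and used DESeq2 1.6.3. The signal values in the deposited table are reads per gene divided by a size factor for each library, per the file headers named normalized. The deposited table also gives the authors' log2 fold changes and p-values. Every deposited signal value was a whole multiple of 1 read within a tolerance of 0.001 (100% of values), so reads were recovered for edgeR 4.0.16, which called 1 gene, DESeq2 1.42.0, which called 78, and voom. Strand use in counting is not given in the sources used here.

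Genes that reached 10 in 4 or more libraries entered limma 3.58.1 (R 4.3.3) on log2(value + 1), with Benjamini-Hochberg adjustment over 14298 genes. Exact permutation tests and figures used Python 3.11.15, pandas 2.3.3, scipy 1.17.1 and matplotlib 3.10.9. Lung and thymus terms are log2(value + 1) of Sftpc and Rag1. Both genes were high in infarct libraries alone, so the terms overlap with the infarct contrast and shifts under them cannot separate carry-over from infarct. The limma fit was tested on simulated data without lung or thymus carry-over, so that test does not cover libraries with carried RNA. Groups came from the labels. The members, gene lists and tests were chosen with earlier results of these data known. Genes were named from a panel of 24, from the smallest p values without overlap and a mean of at least 100, outside lung and thymocyte lists, up to 4 per list, and up to 8 by genotype difference. Intervals cover the spread between libraries only. Alternatives were other pseudocounts, filters, scalings and tools, a replicate block, carry-over terms and left-out libraries.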

Additional observations from a re-analysis of the deposited data

Results flagged for a closer look

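A single library stood far from the other 3 of its group in 5 of 68 groups examined, over 34 genes, by the gap to its nearest neighbour as a share of the group's range. Chance gives such a library in about 1 of 20 groups. Col1a1, a collagen chain, was at 15086 normalized reads in OE sham replicate 4 and between 20335 and 21120 in the other sham libraries. Comp was at 2805.6 in OE infarct replicate 1 and between 419 and 549 in the others. Cyr61, a YAP target, was at 907.28 in OE infarct replicate 2 and between 2212 and 2232 in the others. Mki67 was at 878.5 in OE infarct replicate 3 and between 439.6 and 498 in the others. Eno2 was at 264.74 in OE infarct replicate 1 and between 70.5 and 90.4 in the others.

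The infarct effect differed between genotypes by limma's interaction contrast for 12 genes, as log2 fold change in OE hearts minus that in WT hearts. The differences were -1.4312 for Adamts12, 1.4802 for Ankrd63, -2.0461 for Col3a1, -1.5133 for Col5a2, -1.5971 for Ctsk and -2.9032 for Eno2. They were -2.3085 for Fbln7, -1.2621 for Mmp2, -1.7496 for Pamr1, -1.8135 for Postn, -1.0806 for Ret and -1.0856 for Sparc. Adjusted p ran from 0.0041 for Ctsk to 0.029 for Ankrd63, Col5a2 and Sparc.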

How the results depend on the processing

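The count of calls in OE hearts, 1 in the report, was also 1 with other pseudocounts, filters, scalings and edgeR. It was 0 with only OE libraries, with lung, thymus or both terms, with the replicate block and for RA numbers 1 to 12. It was 78 with DESeq2, 2 with limma-voom, 28 without libraries whose Sftpc exceeded the highest sham library (which leaves OE infarct replicate 4), 39 without those with Sftpc above 100 and 4 without those with Rag1 above 100 (which leaves OE infarct replicate 2, assumed to vary like the other groups). Leaving out 1 library gave 0 to 10, with 10 without OE infarct replicate 2, 3 without OE sham replicate 4, 2 without OE infarct replicate 4 or WT infarct replicate 2, and 0 without OE infarct replicate 3, OE sham replicates 1 to 3, WT infarct replicate 1 or any WT sham library.

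The genotype difference, 12 calls, was called for 149 genes with DESeq2, 20 with the block, 6 with both terms, 2 without libraries with Sftpc above 100 (which leaves 1 WT infarct library), 31 without those with Rag1 above 100 and 0 for RA numbers 1 to 12. Leaving out 1 library gave 1 to 52, the lowest without OE sham replicate 1 or 3 and the highest without WT infarct replicate 2. Removing libraries above the highest sham Sftpc leaves no WT infarct library, so it was not run there. The Erbb2 difference ran from -0.55 to 0.075 with 1 library left out, above 0 without OE infarct replicate 1 (0.075) or OE sham replicate 3 (0.011). That of Sftpc ran from 3.58 to 7.39 and that of Rag1 from 4.67 to 7.58.

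Numbers do not pair the OE samples: same-numbered deviations correlated at 0.068, -0.10, -0.13 and -0.13, and not every library was closest to its own number. Of 251 named genes 1, Ret, was called in the report, and its call was lost in 18 of 34 alternatives. No change of sign past the threshold occurred. With Ret alone past the threshold in the report, this says little about the other genes. DESeq2 called 71 of the named genes that were not called in the report. The filter of 50 covered 218 of the 251. The thymus term, the removals at 100 and the WT leave-outs were chosen after seeing the data. The cause of these changes was not tested.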
